A study of Mus musculus and Homo sapiens with 12 samples.

Results

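Abundant non-coding RNAs are described here in pancreatic cancer cells selected for growth in the liver and in their parental cells. The members are 8 genes: MALAT1, NEAT1, NORAD, RN7SK, RN7SL1, RMRP, RPPH1 and RN45S. They were chosen by their mean normalised counts, with results of these data known, so their levels are given as a description with no test. A row was taken where its symbol, compared in capitals, was 1 of these 8 names. Of 23201 mouse rows, 7 matched, with no RN7SL1 row among those analysed here. Of 18190 human rows, 7 matched, with no RN45S row, and 6 members had a row in both tables.

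These RNAs carry out their work without being translated. MALAT1 and NEAT1 lie side by side in the genome and stay in the nucleus, where MALAT1 gathers in nuclear speckles and NEAT1 builds paraspeckles, the bodies that hold splicing and RNA-binding proteins. Both are cut by RNase P at their mature end, which is closed by a triple helix of RNA in MALAT1 and in the long NEAT1 isoform in place of a poly(A) tail. RPPH1 is the RNA of RNase P itself and RMRP that of the related RNase MRP. RN7SK holds the elongation factor P-TEFb in an inactive particle, RN7SL1 is the RNA scaffold of the signal recognition particle, NORAD is a polyadenylated cytoplasmic RNA that binds Pumilio proteins, and RN45S is the precursor of ribosomal RNA. MALAT1 has been studied widely in tumours as an RNA linked to metastasis.

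RNA came from 12 samples in 4 groups of 3 biological replicates. KPC LM2 and PANC1 LM3 are described by the submitters as generation 2 and generation 3 of liver metastatic cells, and KPC and PANC1 as their parental lines. KPC cells are murine and PANC1 is an established human cell line, both labelled as pancreatic cancer. All 4 groups carry the genotype label WT. For each group 500000 cells were put into the spleen on day 1, and tumours in the liver were taken on day 21. The protocols thus name tumours as the source of the RNA, whereas the sample titles name cells. In tissue of many cells, fewer cells of a type and less RNA per cell cannot be told apart. Whether each selected line was 1 clone, and the strain and age of the host animals, are not given in the sources used here. The libraries were made from total RNA with a TruSeq RNA kit of version 2, a kind of kit that usually starts by capturing poly(A) RNA.

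The ends of the mouse transcripts are shown because the members differ in whether their RNA ends in poly(A). They are copied from GENCODE M21 on GRCm38 and are printed in the sense of the RNA with T for U. All 6 genes lie on the minus strand: Malat1 and Neat1 on chromosome 19, Norad on chromosome 2, Rn7sk on chromosome 9, Rmrp on chromosome 4 and Rpph1 on chromosome 14. The stretch of Malat1 covers bases 6596 to 6716 of 6983, and that of Neat1 the last 90 of 20771. The other 4 are the last 60 bases of each transcript.
Malat1: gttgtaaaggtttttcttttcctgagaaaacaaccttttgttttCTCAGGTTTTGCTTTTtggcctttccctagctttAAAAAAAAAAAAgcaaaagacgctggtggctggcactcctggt
Neat1: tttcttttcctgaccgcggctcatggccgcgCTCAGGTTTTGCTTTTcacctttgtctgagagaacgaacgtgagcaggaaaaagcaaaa
Norad: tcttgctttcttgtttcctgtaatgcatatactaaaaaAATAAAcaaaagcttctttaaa
Rn7sk: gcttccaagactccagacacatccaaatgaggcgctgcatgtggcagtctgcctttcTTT
Rmrp: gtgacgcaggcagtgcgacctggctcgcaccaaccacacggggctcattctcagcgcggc
Rpph1: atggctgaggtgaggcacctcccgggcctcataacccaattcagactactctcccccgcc
Capitals in Malat1 and Neat1 mark a run of 16 letters, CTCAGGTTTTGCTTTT, that both share near their mature ends. Among 141767 mouse transcripts, these letters occurred in 2, those of Malat1 and Neat1, and their reverse complement occurred in 0. The second capital block of Malat1 is its longest run of A, 12 bases from base 6674. A run of at least that length was present in 4.07% of the transcripts. Capitals in Norad mark the letters AATAAA of a polyadenylation signal, which occurred in the last 60 bases of 27.1% of transcripts. Those letters were also in the last 60 bases of the annotated Malat1 transcript, which runs past the stretch shown. In Rn7sk the capitals mark the T run at the end, where RNA polymerase III stops. Rmrp and Rpph1 have no capitals, and their longest runs of A were 3 and 2 bases. Both the stretches and the shared run were chosen after the values below and the sequences had been seen.

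Abundance is given first. Each table lists 1 mean normalised count per gene over both groups, headed baseMean, and no value per library, so the spread over samples cannot be shown and the depth of each library is unknown. The share of a gene is its mean divided by the sum over all rows, 9106249 in the mouse table and 15415388 in the human one. The members together made up 5.02% of the mouse sum and 6.13% of the human sum. They held 3 of the 10 highest rows in the mouse table and 4 of 10 in the human one.

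The order of the members differed between the tables. In the mouse, Rn45s came first with a mean of 231631 and 2.54% of the sum, and Malat1 was next with 181227 and 1.99%, ahead of Ahnak at 102130 and Actb at 51165 in the authors' deposited table. Neat1 ranked 8 with 28952, between Clu at 32206 and Krt18 at 28158 in that deposited table of the authors. Rn7sk at 4983, Rmrp at 4967 and Rpph1 at 4862 lay within 10 ranks of each other, at 194, 197 and 204, each near 0.05% of the sum. Norad was far lower, with a mean of 288, rank 5872 and 0.00317% of the sum.

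In the human table, RN7SK was the highest row with 412521 and 2.68% of the sum, followed by RN7SL1 with 256746 and 1.67%. RPPH1 ranked 4 with 155484 and 1.01%, below RN7SL2, a near-identical copy of RN7SL1, at 186174 in the authors' deposited table. RMRP ranked 7 with 91394 and 0.593%, below EEF1A1 at 121940 in the authors' deposited table. NEAT1 followed at rank 39 with 21699 and 0.141%, NORAD at rank 479 with 4707 and 0.0305%, and MALAT1 at rank 949 with 2998 and 0.0194%. The short structured RNAs thus led in the human table, whereas Rn45s and Malat1 led in the mouse one. RN7SK, RMRP and RPPH1 together held 4.28% of the human sum and 0.163% of the mouse sum. MALAT1, NEAT1 and NORAD held 0.191% of the human sum and 2.31% of the mouse sum. The tables differ in species, genome build, annotation and normalisation, and these shares were not tested against each other.

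**Figure D1:**
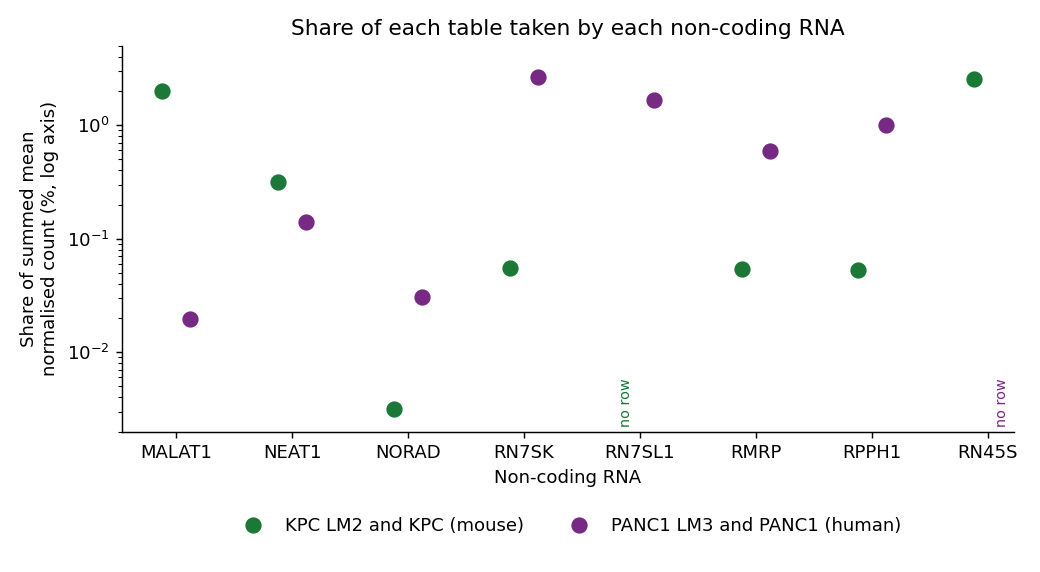
Share of the summed mean normalised count, in percent on a log axis, for each non-coding RNA in the mouse table (green) and the human table (purple); each point is 1 pooled value with no error. MALAT1 and NEAT1 had the higher share in the mouse table, and NORAD, RN7SK, RMRP and RPPH1 in the human table.

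A long transcript yields more fragments than a short one, so the mouse means were also divided by exonic length, known for 97.2% of rows. Per kilobase, Malat1 stood at 25953 and ranked 3, behind 2 small RNAs, Rnu12 and Rnu3a. Rmrp at 17676, Rpph1 at 15242 and Rn7sk at 15055 per kilobase ranked 8, 10 and 12, close to Actb at 19099 per kilobase. Neat1 at 1394 per kilobase ranked 185 over its full long isoform, and Norad at 58.6 per kilobase ranked 6311. Rn45s had no length in the annotation used. These ranks per length were added after the values had been seen.

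The share of genes called sets the scale for what follows. A gene was called where the adjusted p of the authors' deposited Wald test, by Benjamini-Hochberg, was under 0.05. Between KPC LM2 and KPC 10.4% of 20050 tested genes were called, 5.77% with a positive and 4.6% with a negative fold change. Among the genes with a mean of 64 or more, as all the members had, 12.7% were called, 10.6% positive and 2.11% negative. Between PANC1 LM3 and PANC1 52.5% of 17838 tested genes were called, 26% positive and 26.5% negative, and 69.3% of those with a mean of 64 or more, 32.7% positive and 36.5% negative. All 7 members were tested in each table. Called were 2 of 7 in the mouse, both positive, and 4 of 7 in the human comparison, 1 positive and 3 negative. The human split depended on the scaling. It was 1 positive and 2 negative after recentring on the median of genes at 64 or more. It was 3 positive and 1 negative once the running median of the genes nearest in level was subtracted. For the highest rows, RN7SK and RN7SL1 among them, those genes lay almost all lower in level. The median log2 fold change of the members was 0.19 in the mouse table and -0.052 in the human table, against 0.22 and -0.033 over all tested genes with a mean of 64 or more.

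No header or label says which group is on top of the fold change, so signs are given as listed and no member is called higher or lower in the selected cells. An error after ± is the standard error (SE) in the authors' deposited tables, and intervals are 95% normal intervals computed from it. In the mouse comparison, genes with a mean of 64 or more had a median of 0.22 rather than 0 on the log2 scale. Values recentred on that median are therefore given beside the called mouse members. Mouse calls were also counted over all the gene lists below except the cell markers. Besides partners, these lists hold other non-coding RNAs and histone messages. The split was 16 positive and 3 negative as deposited, 6 and 9 recentred, and 5 and 6 with the running median subtracted. The mouse partner calls below are given as deposited, with those that recentring ended, and these list counts were added after the values had been seen.

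MALAT1 was called in the mouse comparison and not in the human one. The authors' deposited table listed Malat1 at a log2 fold change of 0.95 ± 0.19 between KPC LM2 and KPC, with an adjusted p of 3.57e-05 by the Wald test and Benjamini-Hochberg. That is a 1.93-fold difference, with an interval from 1.49 to 2.48. With groups of equal size, it corresponds to means of about 238611 in the group on top of the ratio and 123842 in the other. Recentred, Malat1 stood at 0.73, with an adjusted p of 0.00363 by the same test. When the normal reference of the test was exchanged for the t distribution (4 degrees of freedom), Malat1 and Rn7sk both lost the call, with an adjusted p of 0.43 by the Benjamini-Hochberg method. Of all 20050 tested mouse genes 0 were called in that setting, so the loss does not set these RNAs apart. MALAT1 in the human comparison was listed at -0.052 ± 0.16 in the authors' deposited table, with an adjusted p of 0.818 by the Wald test and Benjamini-Hochberg. Its interval ran from -0.37 to 0.26 on the log2 scale.

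Partners of MALAT1 were a list of 21 genes for nuclear speckle proteins and MALAT1 handling. In the mouse, 2 of 21 were called, both positive, Srsf5 at 0.67 ± 0.18 and Srsf11 at 0.59 ± 0.18 in the authors' deposited table. Both encode serine- and arginine-rich splicing factors, and after recentring neither was called, at 0.45 and 0.37. Srrm2, a scaffold protein of speckles and the most abundant of the list, was listed at -0.26 ± 0.18 in the authors' deposited table and was not called. Between PANC1 LM3 and PANC1 7 of 21 were called positive and 8 negative, close to the 32.7% and 36.5% of genes with a mean of 64 or more. Among them the authors' deposited table listed SRSF11 at 0.43 ± 0.05, TRA2B at 0.60 ± 0.05 and RNPS1 at 0.77 ± 0.06, and the splicing factors SRSF3 at -1.18 ± 0.05 and SRSF2 at -0.81 ± 0.05.

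NEAT1 had the opposite pattern of calls. The authors' deposited table listed NEAT1 at -0.88 ± 0.18 between PANC1 LM3 and PANC1, with an adjusted p of 2.43e-06 by the Wald test and Benjamini-Hochberg. The difference was 1.84-fold, and the interval ran from -1.22 to -0.53 on the log2 scale. It corresponds to means of about 15292 in the group on top of the ratio and 28105 in the other. In the mouse, Neat1 was listed at 0.19 ± 0.20 in the authors' deposited table, with an adjusted p of 0.526 by the Wald test and Benjamini-Hochberg. Its interval ran from -0.20 to 0.58, and recentring turned the sign to -0.029. The 2 isoforms of NEAT1 share their start, and the counts do not separate the short polyadenylated one from the long one.

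Of the paraspeckle proteins, 1 of 30 was called in the mouse, Runx3 at -3.59 ± 0.87 and a mean of only 10.5 in the authors' deposited table. With the running median subtracted it was no longer called, at -2.37. In the human comparison 8 of 31 were called positive and 17 negative, and 30 of the 31 had a mean of 64 or more, where 32.7% and 36.5% of genes were called. With the running median subtracted, 8 were called positive and 14 negative. The median of the list was -0.21, against -0.033 over all genes with a mean of 64 or more. The negative ones included the core proteins NONO at -0.81 ± 0.05 and SFPQ at -0.45 ± 0.05 in the authors' deposited table. There HNRNPR, an RNA-binding protein, had -1.37 ± 0.06, while HNRNPH3 was positive at 0.83 ± 0.08 and the chromatin remodeller SMARCA4 at 0.76 ± 0.11. In the mouse, where neither was called, Nono stood at 0.17 ± 0.17 and Sfpq at 0.46 ± 0.18 in the authors' deposited table.

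Genes beside MALAT1 and NEAT1 were also read. In the mouse, Frmd8 had 0.12 ± 0.20 and Ltbp3 0.25 ± 0.27 in the authors' deposited table, and neither was called. Between PANC1 LM3 and PANC1 the authors' deposited table listed FRMD8 at -0.47 ± 0.08 and LTBP3 at 0.40 ± 0.09, both called with opposite signs.

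NORAD varied little in the human comparison, and its interval in the mouse was wider. The authors' deposited table listed it at -0.13 ± 0.052 in the human comparison, with an adjusted p of 0.0309 by the Wald test and Benjamini-Hochberg. This 1.09-fold difference was the smallest of the human calls among the members, and recentring on the median of genes at 64 or more ended the call, with an adjusted p of 0.124 by the same test. With the running median subtracted the difference itself shrank to -0.0074, with an adjusted p of 0.923 by the same test. The t distribution ended it too, with an adjusted p of 0.145 by Benjamini-Hochberg. In the mouse, Norad was listed at 0.047 ± 0.23 in the authors' deposited table, with an interval from -0.40 to 0.50. Of 9 NORAD partners, 0 were called in the mouse by the Wald test. In the human comparison 3 were called positive and 5 negative, with TOP1 at 0.29 ± 0.07 and RBMX at -0.85 ± 0.05 in the authors' deposited table. All 9 had a mean of 64 or more, where 32.7% and 36.5% of genes were called. With the running median subtracted, 3 were called positive and 3 negative. TOP1 is a DNA topoisomerase and RBMX an RNA-binding protein of the nucleus.

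**Figure D2:**
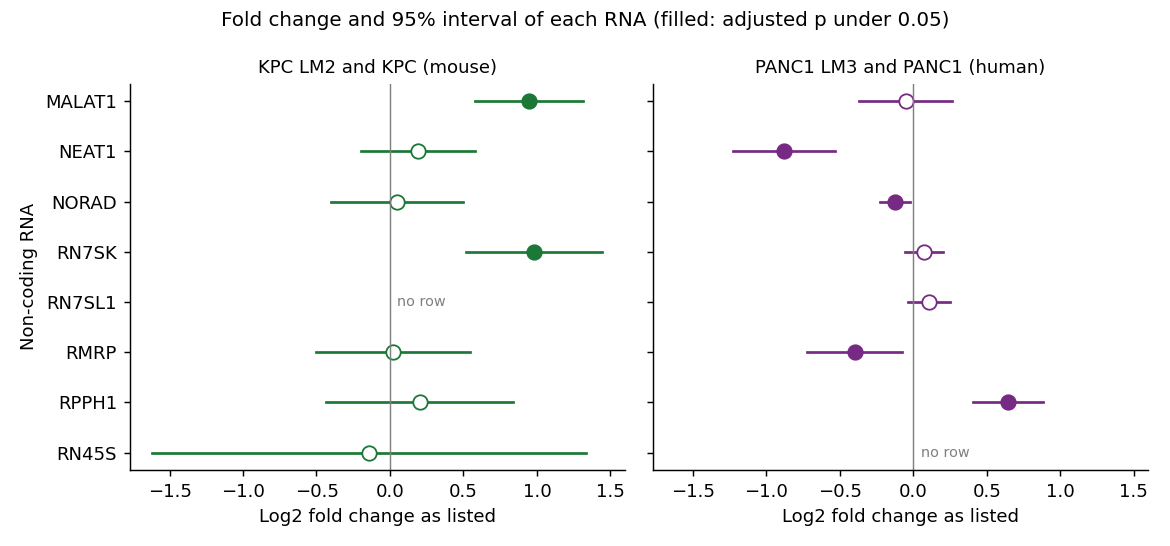
Log2 fold change of each non-coding RNA as listed (points) with its 95% interval from the listed SE (lines), for the mouse comparison on the left and the human one on the right; filled points have an adjusted p under 0.05. MALAT1 and RN7SK are filled in the mouse panel, NEAT1, NORAD, RMRP and RPPH1 in the human panel, and the Rn45s interval, from -1.62 to 1.33, is the widest.

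RN7SK, the highest row of the human table, was called in the mouse. The authors' deposited table listed Rn7sk at 0.98 ± 0.24 between KPC LM2 and KPC, with an adjusted p of 0.00148 by the Wald test and Benjamini-Hochberg. The difference was 1.97-fold, with an interval from 1.43 to 2.72, and corresponds to means of about 6613 in the group on top of the ratio and 3354 in the other. Recentred, Rn7sk stood at 0.76, with an adjusted p of 0.0217 by the same test. Between PANC1 LM3 and PANC1 RN7SK was listed at 0.072 ± 0.066 in the authors' deposited table, with an adjusted p of 0.383 by the Wald test and Benjamini-Hochberg. The narrow interval, from -0.058 to 0.20 on the log2 scale, holds only small differences under the authors' scaling. Subtracting the running median moved RN7SK to 0.17, with an adjusted p of 0.0241 by the same test. For this highest row, all other genes behind that median were lower in level. Genomes hold many copies resembling RN7SK, and how reads with several matches were counted is not given in the sources used here.

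The proteins of the 7SK particle and of P-TEFb were mostly not called in the mouse, 1 of 14. That gene was Ell2, of the super elongation complex, at -0.60 ± 0.20 in the authors' deposited table. Larp7, which binds the end of 7SK, had 0.45 ± 0.21, Mepce, which caps it, 0.43 ± 0.22, and Hexim1, the inhibitor it carries, -0.12 ± 0.19 in that deposited table of the authors. In the human comparison 3 of 14 were called positive and 7 negative. With the running median subtracted, 3 were called positive and 4 negative. Of all human genes with a mean of 64 or more, 32.7% and 36.5% were called. On the positive side were DDX21 at 0.39 ± 0.05, and of P-TEFb the cyclin CCNT1 at 0.72 ± 0.06 and the kinase CDK9 at 0.34 ± 0.11 in the authors' deposited table. CCNT2, the other cyclin of P-TEFb in the list, had 0.02 ± 0.08 there and was not called. On the negative side were ELL2 at -1.07 ± 0.06, AFF1 at -0.46 ± 0.10 and PPM1G at -0.31 ± 0.06 in the authors' deposited table. HEXIM1 at -0.55 ± 0.18 and MEPCE at -0.17 ± 0.07 were negative there with larger adjusted p-values. ELL2 was thus negative in both tables as listed. Neither names the group on top, so the equal signs cannot be read as a shared direction.

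RNA polymerase III, which makes RN7SK, RN7SL1, RMRP and RPPH1, had 4 of 29 genes called positive and 0 called negative in the mouse. They included Crcp, a polymerase subunit, at 0.91 ± 0.23, Polr3gl, also a subunit, at 1.25 ± 0.40 and Gtf3c2, of the promoter factor TFIIIC, at 0.56 ± 0.20 in the authors' deposited table. Recentring left 1 positive call, Crcp at 0.69, and gave 1 negative one. Between PANC1 LM3 and PANC1 14 of 30 were called positive and 6 negative, and 29 of the 30 had a mean of 64 or more, where 32.7% and 36.5% of genes were called. ZNF143, an activator of promoters of this kind, was listed at 1.51 ± 0.08, the subunit POLR3D at 1.12 ± 0.10 and SNAPC1, of the factor that starts transcription at 7SK-type promoters, at 0.72 ± 0.08 in the authors' deposited table. There GTF3C1 had -0.50 ± 0.05.

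RN7SL1 had a row in the human table only. It was listed at 0.10 ± 0.072 in the authors' deposited table, with an adjusted p of 0.226 by the Wald test and Benjamini-Hochberg. Its interval ran from -0.037 to 0.25 on the log2 scale. Its copy RN7SL2 was listed at 0.04 ± 0.07 and was not called, and RN7SL3, at a mean of 20125, stood at -0.23 ± 0.06 and was called in the authors' deposited table. Reads of RN7SL1 and its copies can be split between rows, so the value of each single row is uncertain. With the running median subtracted, RN7SL1 moved to 0.21, with an adjusted p of 0.00942 by the same test. The genes behind that median were almost all lower in level than RN7SL1.

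Of the proteins of the signal recognition particle and its partners at the membrane, 2 of 14 were called in the mouse, both positive. Sec11c, a catalytic subunit of signal peptidase, was listed at 1.54 ± 0.28 and Srp72, a protein of the particle, at 0.65 ± 0.18 in the authors' deposited table. After recentring Sec11c was still called, at 1.32, and Srp72 was not, at 0.44. In the human comparison 4 of 16 were called positive and 10 negative. All 16 had a mean of 64 or more, where 32.7% and 36.5% of genes were called. With the running median subtracted, 4 were called positive and 6 negative. SRP9, which binds the RNA, stood at 0.38 ± 0.06 and SRPRA, of the receptor, at 0.68 ± 0.06, whereas SEC11A had -0.95 ± 0.07 and the channel subunit SEC61A1 -0.56 ± 0.06 in the authors' deposited table.

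RPPH1 and RMRP, which share most of their proteins, were called with opposite signs in the human comparison. The authors' deposited table listed RPPH1 at 0.64 ± 0.12, with an adjusted p of 3.68e-07 by the Wald test and Benjamini-Hochberg. The difference was 1.56-fold, with an interval from 1.33 to 1.84, and corresponds to means of about 189607 in the group on top of the ratio and 121361 in the other. RMRP was listed at -0.40 ± 0.16 in the authors' deposited table, with an adjusted p of 0.029 by the Wald test and Benjamini-Hochberg, and an interval from -0.72 to -0.080. With the running median subtracted, RMRP stood at -0.29 and was no longer called, with an adjusted p of 0.127 by the same test, nor with the t distribution, at 0.142. The difference between these 2 genes within the table was not tested.

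Neither RNA was called in the mouse. Rpph1 was listed at 0.20 ± 0.33 in the authors' deposited table, with an adjusted p of 0.695 by the Wald test and Benjamini-Hochberg. Rmrp was listed at 0.022 ± 0.27 in that deposited table of the authors, with an adjusted p of 0.966 by the same test. Recentring turned both signs, to -0.016 for Rpph1 and -0.20 for Rmrp. Their intervals, from -0.43 to 0.84 and from -0.50 to 0.55, leave room for differences as large as the human ones.

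The shared proteins of RNase P and RNase MRP were split in the human comparison, with 4 of 10 called positive and 4 negative. All 10 had a mean of 64 or more, where 32.7% and 36.5% of genes were called. POP7 at 0.59 ± 0.11 and RPP30 at 0.43 ± 0.08 were positive, and POP1, the largest protein of both enzymes, was at -1.13 ± 0.11 and POP4 at -0.57 ± 0.09 in the authors' deposited table. In the mouse, 2 of 10 were called, Pop5 at 0.84 ± 0.25 and Pop7 at 0.80 ± 0.28 in the authors' deposited table. Recentring ended both calls, at 0.62 and 0.58, and gave 1 negative call.

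Genes next to RPPH1 and RMRP were also listed as called in places. Parp2, beside Rpph1, had 0.78 ± 0.22 in the mouse and PARP2 had 0.27 ± 0.10 in the human comparison, both called in the authors' deposited tables. Ccdc107, beside Rmrp, had 0.79 ± 0.27 in the mouse and was called in the authors' deposited table. Recentring ended both mouse calls, at 0.56 and 0.57. Whether counting used the strand is not given in the sources used here, and a part of these neighbours in the values of the RNAs was not tested.

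RN45S, the highest row of the mouse table, was its least precise member. The authors' deposited table listed Rn45s at -0.14 ± 0.75 between KPC LM2 and KPC, with an adjusted p of 0.917 by the Wald test and Benjamini-Hochberg. The interval ran from -1.62 to 1.33 on the log2 scale, so a log2 difference of 2.11 in size would have been needed for a call at the threshold of this table. Ribosomal RNA genes are repeated in the genome, and how much of this RNA enters a library depends on its preparation, which was not tested.

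Genes of RNA polymerase I and ribosomal RNA transcription had 3 of 25 called in the mouse, all positive. Taf1b and Taf1d, of the promoter selectivity factor, had 1.06 ± 0.25 and 0.65 ± 0.21, and Polr1d, a subunit shared with polymerase III, had 0.65 ± 0.20 in the authors' deposited table. Recentring left Taf1b called, at 0.84, ended the calls of Taf1d and Polr1d, both at 0.43, and gave 2 negative calls. Among human genes of this list 7 of 24 were called positive and 5 negative. All 24 had a mean of 64 or more, where 32.7% and 36.5% of genes were called. POLR1B, the second largest subunit, had 0.73 ± 0.07 and UBTF, the factor that binds ribosomal DNA, -0.95 ± 0.06 in the authors' deposited table.

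**Figure D3:**
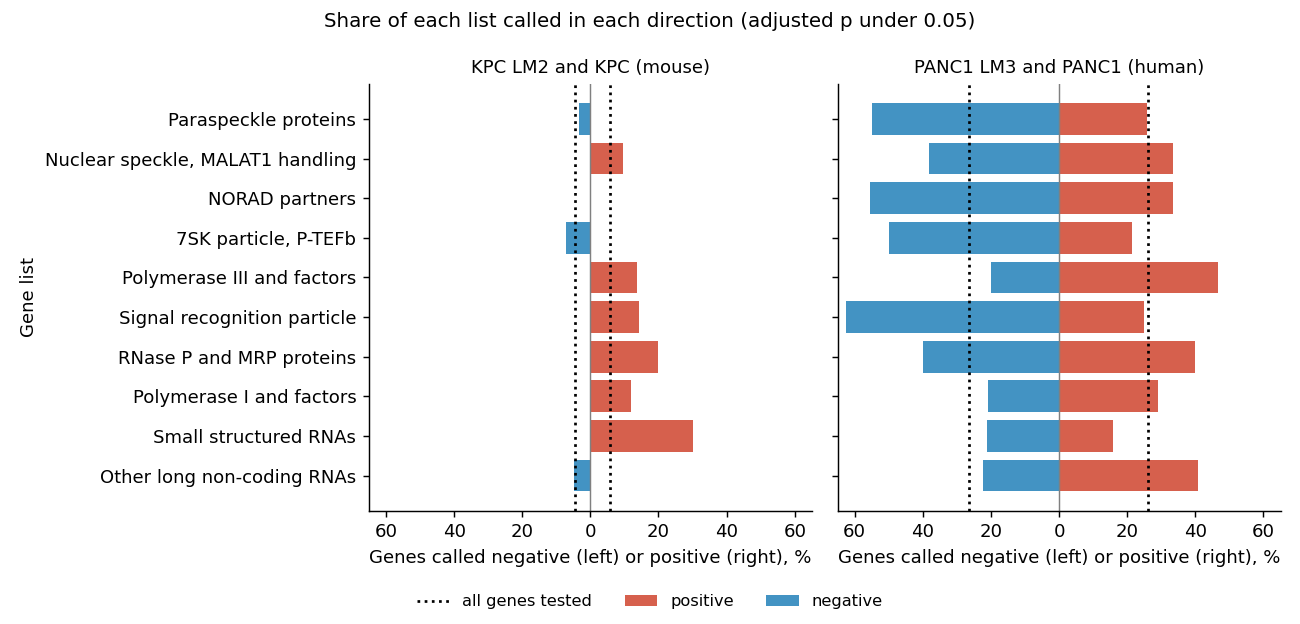
Percent of each list of partners or of other non-coding RNAs called with a negative (blue, left) or positive (red, right) fold change, in the mouse comparison (left panel) and the human one (right panel). Dotted lines give the percent of all tested genes called in that direction, and the scaling is the authors'. In the human panel the negative bar of paraspeckle proteins, 17 of 31, and the positive bar of RNA polymerase III, 14 of 30, are among those that pass the dotted line. Recentring turned the balance of mouse calls over these lists and that of histone messages, which was 6 positive and 9 negative against 16 and 3 as deposited.

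Other non-coding RNAs show what else the libraries captured. Of small structured RNAs in the mouse, 3 of 10 were called, all positive. Vaultrc5, the vault RNA, had 2.69 ± 0.29, Rnu12, of the minor spliceosome, 1.17 ± 0.27 and the Y RNA Rny3 0.90 ± 0.24 in the authors' deposited table. Recentring kept all 3 calls, and the running median ended that of Rny3, at 0.67. In the human comparison 3 of 19 were called positive and 4 negative, with VTRNA1-3 at 0.65 ± 0.16 and RNY1 at -0.91 ± 0.07 in the authors' deposited table. Of other long non-coding RNAs, 1 of 21 was called in the mouse, Meg3 at -1.91 ± 0.68 in the authors' deposited table, a call that the running median ended, at -1.78. Among the human ones, 11 of 27 were called positive and 6 negative. There the authors' deposited table listed MIR100HG at 3.00 ± 0.10, ZFAS1 at 1.88 ± 0.06 and MEG3 at 1.76 ± 0.06, against H19 at -3.04 ± 0.22 and HOTAIR at -1.90 ± 0.12. These folds are wider than that of any member.

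Histone messages, which mostly end in a stem-loop and not in poly(A), had 0 of 7 called in the mouse by the Wald test and 12 of 13 called negative in the human comparison. All 13 had a mean of 64 or more, where 36.5% of human genes were called negative. H1-5 had -2.62 ± 0.08 and H1-3 -2.06 ± 0.09 in the authors' deposited table. RNAs without a poly(A) tail thus did not share 1 sign in the human table, where RPPH1 was called positive and RMRP and most histone messages negative. Their part in each other's values was not tested.

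The precision of the members stood out in the human table. The SE of each was divided by the median SE of up to 100 genes on each side of it in level. This comparison was added after the values had been seen. For the highest rows these genes lay almost all lower in level, some of them far lower. NEAT1 had 3.34 times, RMRP 3.06 times, MALAT1 2.79 times and RPPH1 2.26 times the median SE of those genes. RN7SL1 had 1.35 times and NORAD 0.942 times that median. The SE of RN7SK was above that of 86.1% of the 101 rows in its range, where it was the highest row. In the mouse, Rn45s had 3.83 times and Rpph1 1.60 times the median, Rmrp 1.33 times and Rn7sk 1.18 times, whereas Neat1, Norad and Malat1 lay between 0.952 and 1.00 times. NEAT1 and MALAT1 were thus noisier than the genes nearest in level in the human libraries and not in the mouse ones. Their own SEs were not larger in the human table, at 0.177 and 0.161, against 0.197 and 0.187 in the mouse. The median SE of the genes near them was 0.053 and 0.058 in the human table and 0.196 for both in the mouse. For 3 libraries in each group, the SE of NEAT1 corresponds to a coefficient of variation of about 15.0% between replicates, that of RN7SK to 5.63% and that of Rn45s to 63.9%. Which library carries this spread cannot be read from these tables.

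**Figure D4:**
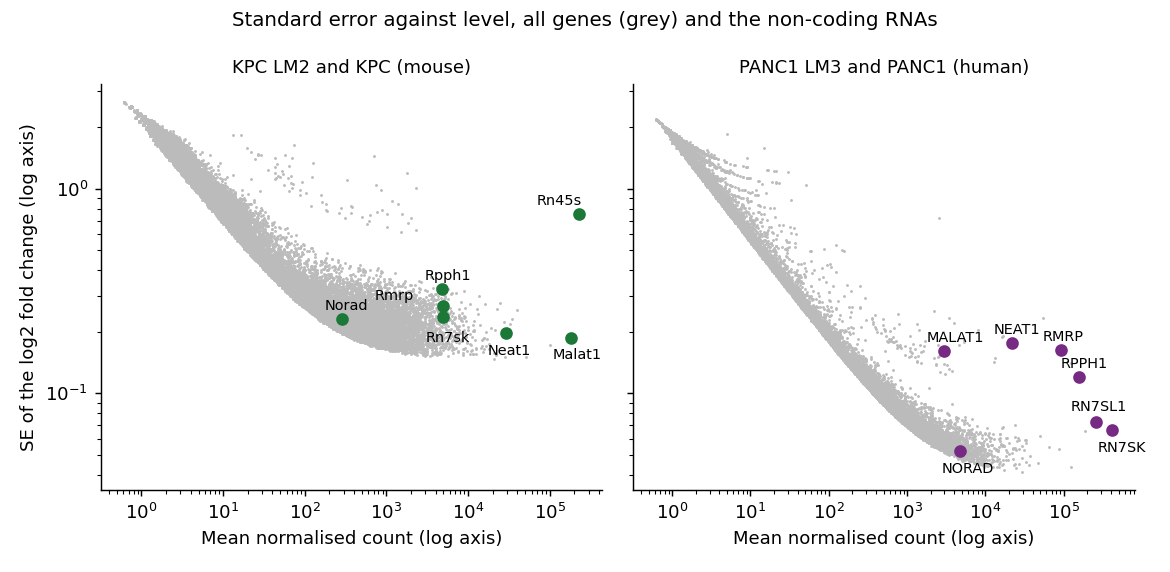
Listed SE of the log2 fold change against the mean normalised count, both on log axes, for all genes (grey) and the non-coding RNAs (coloured), in the mouse table (left) and the human table (right). Rn45s lies far above the mouse cloud, and MALAT1, NEAT1, RMRP and RPPH1 lie above the human cloud, where NORAD lies inside it.

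Because the sign cannot be assigned, the comparisons were set against each other by the size of the fold change alone. For each gene the absolute log2 value in the human comparison was subtracted from that in the mouse one, and the difference was tested against the combined SE over 12777 genes, of which 9.69% were called. This normal test with Benjamini-Hochberg adjustment was added after the values had been seen, and it uses the folds within each table, since the tables were normalised separately. MALAT1 differed by 0.89 ± 0.25 (adjusted p = 0.00527 in this normal test with Benjamini-Hochberg). RN7SK differed by 0.91 ± 0.25 (adjusted p = 0.00424 in the same test). Both folds were thus larger between KPC LM2 and KPC than between PANC1 LM3 and PANC1. Recentring both tables left MALAT1 called at 0.71 but not RN7SK at 0.66 (adjusted p = 0.0429 and 0.0691 in the same test).

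NEAT1 differed the other way, by -0.69 ± 0.26, and was not called (adjusted p = 0.0817 in the same normal test with Benjamini-Hochberg). After recentring it was called, at -0.82 (adjusted p = 0.0252 in the same test). RPPH1 at -0.44 ± 0.35, RMRP at -0.38 ± 0.31 and NORAD at -0.079 ± 0.24 were not called.

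The genes most like each member were those at the smallest distance over the 2 log2 fold changes, among 8137 genes with a mean of 64 or more in both tables. With only 2 values per gene, many genes lie close together. For MALAT1 they were TMEM260, MTMR1 and ATP6V0B, at distances of 0.01 to 0.03, and for NEAT1 SAR1A, CDC42EP4 and HSD17B4, at 0.01 to 0.02. For RN7SK, MYO6 at 0.03, RAC1 at 0.05 and ZHX1 at 0.07 were nearest, and for NORAD ANTKMT, MYL6 and FUBP3, all within 0.02. For RMRP they were MRPL44, SAP130 and MRPL41, all at 0.01, and for RPPH1 SDCCAG8, PELP1 and ECHDC2, at 0.01 to 0.02.

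Markers of the cells were read beside these results. Some pancreatic cancer cell markers were abundant in both tables. The authors' deposited tables listed Krt18 at 28158 and Krt8 at 10742 in the mouse. In the human comparison they listed KRT8 at 49702 and KRT18 at 37055. The lowest markers of this list were KRT7 at 45.4 and EPCAM at 370 in the authors' deposited human table. In their mouse table Epcam was lowest, at 524. The human keratins KRT8 at -4.35 ± 0.06 and KRT19 at -3.79 ± 0.05 were called in the authors' deposited table, and EPCAM was called with the other sign, at 0.97 ± 0.10. In all, 5 of these 7 human markers were called negative and 1 positive. In the mouse 2 of 7 were called, Krt7 at 1.18 ± 0.18 and Epcam at -1.14 ± 0.28 in the authors' deposited table. Host markers were close to the floor of the mouse table: 7 of 10 hepatocyte markers had a row and summed to 57.1, with Alb at 10.4 in the authors' deposited table. The leukocyte, fibroblast and endothelial lists summed to 116, 145 and 110, less than the mean of Norad. Of these, Adgre1 at -2.88 ± 0.75 and Col1a1 at -1.84 ± 0.63 were called in the authors' deposited table, at means of only 13.4 and 19.9. With the running median subtracted neither was called, at -1.86 and -1.32. The same lists in the human table hold human genes, counted on the build hg19, and so are no direct measure of host animal cells. They summed to 31.1 for hepatocytes, 11.4 for endothelium, 623 for fibroblasts and 1144 for leukocytes. COL3A1, listed at 405 and 1.05 ± 0.11, and CD68, listed at 1103 and 1.91 ± 0.07, made up most of the fibroblast and leukocyte sums and were called in the authors' deposited table. ITGAM at -0.92 ± 0.34 and CDH5, at a mean of 9.89 and -4.09 ± 0.95, were also called in the authors' deposited table. The part of host cells in the values of the members was not tested.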

How the data were processed

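RNA-seq of 12 samples was read from 2 tables, each holding the authors' own comparison of 2 groups. Per the submitters' processing notes, STAR 2.7.6a, featureCounts 2.0.0, MultiQC 1.9 and DESeq2 1.24 were used, with the builds mm39 and hg19; annotation, strand and multi-mapping settings are not given in the sources used here. Per the file headers, the authors deposited a mean normalised count per gene (a signal pooled over libraries, read here as counts divided by size factors), a log2 fold change with its SE, a score (the Wald statistic), a p-value and an adjusted p. The deposited score equalled the log2 fold change over its SE within 9.2e-08, and a recomputed Benjamini-Hochberg adjustment matched the deposited adjusted p-values within 2.5e-06. The tables hold no value per library, so the planned edgeR count test was not run, depth per sample is unknown, and leaving out replicates was not possible. Whether replicates came from separate animals is not stated, so p-values measure the spread between these samples, which may be technical.

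Computed here were shares, ranks, normal intervals, levels per kilobase (GENCODE M21, GRCm38, exonic union), SE relative to the nearest 100 genes on each side in level, and the difference in size of folds between the models. Group means given as about equal to a value follow from the mean and the fold for groups of equal size. Named genes were all members, per list up to 3 called genes per direction with the smallest adjusted p and the most abundant one, neighbours in level and in the genome, and the 3 nearest genes in fold change. Some other list members, called or not, are also named, a choice made with their values in view. Values of a few genes covered by this rule are not reported here. The members and lists were chosen with earlier results of these data known. Alternatives were an adjusted p under 0.01, an absolute log2 fold change over 1 and other sets of genes for the adjustment. Further ones were recentring, a running median over 501 genes and a t distribution with 4 degrees of freedom. At both ends of the level range the running median took fewer genes. The scripts (Python 3.11.15, pandas 2.3.3, scipy 1.17.1) were tested on simulated data. Sequences come from GENCODE M21, not from the authors' builds, and no coordinates are given.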

Additional observations from a re-analysis of the deposited data

Results flagged for a closer look

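The size of the fold change differed between the models for 2 of the 6 RNAs with a row in both tables, by the normal test on the absolute log2 values with Benjamini-Hochberg adjustment. MALAT1 had a size 0.89 larger between KPC LM2 and KPC than between PANC1 LM3 and PANC1. For RN7SK the size was 0.91 larger between KPC LM2 and KPC than between PANC1 LM3 and PANC1. The RN7SK difference was no longer called after recentring, at 0.66, or with the running median subtracted, at 0.60. NEAT1, not called as deposited, was called with both, at -0.82 and -0.79, so which RNAs passed depended on the scaling. The test was chosen after the values had been seen, and 9.69% of all genes tested passed it. Because the group on top of the fold change is not named, it says nothing of direction.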

How the results depend on the processing

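Both mouse calls, Malat1 and Rn7sk, kept sign and call under a threshold of 0.01, both other sets of genes for the adjustment, recentring and the running median. In the mouse, 0 of the members were called with an absolute log2 fold change over 1 required, and 0 under a t distribution with 4 degrees of freedom. Under that t distribution 0 mouse genes were called in all, by the recomputed Wald test, with 2132 at an unadjusted p under 0.05, against 2079 called as deposited. Mouse genes called over the lists of partners, other non-coding RNAs and histone messages numbered 19 (16 positive, 3 negative). They numbered 15 recentred (6 and 9) and 11 with the running median subtracted (5 and 6). The number was 9 at 0.01, 7 over a log2 of 1 and 0 under the t distribution. In the human comparison the members called numbered 4, and 2 at 0.01, 0 over a log2 of 1 and 2 under the t distribution, where RPPH1 and NEAT1 were called. They were 1 positive and 3 negative as deposited, 1 and 2 recentred, and 3 and 1 with the running median subtracted. Human genes called over the same lists numbered 148, and 26 over a log2 of 1. The human share called per list, as deposited, ran from 36.8% to 100%. Of all human genes with a mean of 64 or more, 69.3% were called. In the mouse the share per list ran from 0% to 30%, against 12.7% of such genes. The totals are given only to show the effect of the settings. Signs turned with recentring and with the running median for Rmrp (-0.20 and -0.19), Rpph1 (-0.016 and -0.0082) and Norad (-0.17 and -0.18), with recentring for Neat1 (-0.029), and with the running median for the human MALAT1 (0.046); none of these was called either way. For NORAD the size difference between the models turned to 0.079 and 0.17, also not called. The difference for RN7SK was no longer called with either (0.66 and 0.60), and that for NEAT1 was called with both (-0.82 and -0.79), alternatives chosen after seeing the data. Over all mouse genes, the split of calls was 1157 positive and 922 negative as deposited, 506 and 1643 recentred, and 585 and 548 with the running median subtracted. The members' share was 5.47% in the mouse and 6.82% in the human table with the 10 highest rows left out of the denominator, and 5.28% and 6.53% with the members left out of it. Without the Rn45s row, an alternative chosen after seeing the data, the mouse share was 2.54%. The causes of these changes were not tested. No paired analysis was possible because the tables hold no value per sample, and for the same reason no replicate was left out and no count test was run. Depth limits cannot be given. Reads shared among copies of RN7SK, RN7SL1 and RN45S, and among overlapping genes, limit what each single row means.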
